A study of Homo sapiens with 12 samples.

Results

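DOT1L, MLLT10/AF10 and 7 of their partners in transcription elongation were followed by 27 probes on 12 two-colour arrays of colorectal cancer and embryonic kidney cells depleted of Wnt coactivators by siRNA. The 9 genes were DOT1L, MLLT10, MLLT1, MLLT3, MLLT6, AFF1, AFF4, KMT2A and MEN1. Their probes were all those whose RefSeq transcript belongs to one of these genes, and they were 27 of the 43376 features on each array that are not control spots. DOT1L had 3 probes, MLLT10 had 2, MLLT1 had 3, MLLT3 had 2, MLLT6 had 4, AFF1 had 3, AFF4 had 5, KMT2A had 3 and MEN1 had 2, each printed as 1 spot.

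Ls174T is a human colorectal cancer line in which Wnt signalling is switched on by mutation, and HEK293T is a human embryonic kidney line in which it can be switched on by Wnt3A. Cells were transfected for 72 hours with 15 nM siRNA, bought as pools of several sequences against each target. Ls174T cells received si-control, or siRNA against MLLT10 (si-MLLT10), BRG1 (si-BRG1), P300 (si-P300) or β-catenin (si-b-catenin). HEK293T cells received si-control followed by control conditioned medium (CM), or were given Wnt3A conditioned medium for 9 hours after si-control, after si-MLLT10, after siRNA against DOT1L (si-DOT1L), after si-BRG1 or after si-P300. BRG1 is the product of SMARCA4 and P300 that of EP300, both coactivators outside the DOT1L complex. On 10 arrays 1 sample was set against a common human reference RNA, and the RNA of si-b-catenin cells was set directly against that of si-control cells on 2 arrays with the dyes exchanged. Each condition was 1 biological sample. No difference could therefore be tested against the spread between replicates, and each value below carries the error that the scanner's analysis program estimates for the spot, which covers technical noise only.

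DOT1L places the methyl groups on lysine 79 of histone H3, a mark found over the bodies of transcribed genes. MLLT10 and its close relative MLLT6 bind DOT1L and extend the reach of its methylation. MLLT1 and MLLT3 are YEATS-domain readers that can bind DOT1L or the AFF scaffolds of the super elongation complex. That complex carries the kinase P-TEFb, which releases paused RNA polymerase II. KMT2A, a methyltransferase for lysine 4 of histone H3, and menin, the product of MEN1, form the chromatin complex that leukaemia translocations fuse to several of these partners.

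A probe was called well measured in a comparison where its signal stood over 2 times above local background in either channel on every array used. That left between 15 and 23 of the 27 probes in each comparison. On the 10 reference arrays, 19 probes had a sample signal well above background on every one, whereas KMT2A probe A_24_P136402 and MEN1 probe A_24_P153898 had it on none. The arrays held between 18104 and 31011 well-measured features, with a median program error of 0.21 to 0.23 on the log2 scale. The arrays lay on 5 slides. The HEK293T si-control Wnt3A array had a slide of its own, so that in each comparison with it the slide cannot be told apart from the treatment. Values from arrays of 1 slide are given beside the main results for some of the member probes. The same holds for Ls174T si-BRG1 and si-P300, which shared a slide without si-control, and for the baselines of the lines. The siRNA targets outside the set were lower in their own knockdowns. CTNNB1 read -2.71 and -2.49 on its 2 probes in the si-b-catenin pair, the 3 SMARCA4 probes read -2.24 to -2.53 in Ls174T and -3.95 to -4.00 in HEK293T, and the EP300 probes read -1.21 and -0.60 in Ls174T against -2.83 and -2.35 in HEK293T, all as log2 differences from si-control. Of the markers of colon epithelium, 8 of 8 genes were well above background on all Ls174T arrays, and so were 5 of 5 measured kidney-line genes on all HEK293T arrays. These counts alone do not tell the lines apart, since 5 of the colon genes were also above background on all HEK293T arrays and 4 of the kidney-line genes on all Ls174T arrays. Of the fibroblast markers, 3 of 4 were above it on all Ls174T arrays and 4 of 4 on all HEK293T arrays, as were 2 of 3 hematopoietic markers in each line, and their part in the results was not tested. The median signal of LGALS4, a colon marker chosen after its values were seen, was 7560 in Ls174T and 41.6 in HEK293T. Some listed markers went the other way. Colon marker MUC2 read 224.4 in Ls174T and 289.3 in HEK293T on probe A_24_P341761, and kidney-line marker WT1 read 461 and 137.

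DOT1L RNA was lower on the array from si-DOT1L cells and close to its control on the others. Probe A_23_P408768, the brightest for the gene, read -0.13 in HEK293T cells with control medium, -0.10 with Wnt3A, -0.09 after si-MLLT10, -2.07 after si-DOT1L, -0.42 after si-BRG1 and 0.19 after si-P300, as log2 of sample over reference. The si-DOT1L array stood apart below all the others, at a log2 difference from si-control of -1.97 ± 0.35 (program error). Probe A_23_P101737 gave 0.23, 0.31, 0.24, -1.10, 0.34 and 0.31 on the same arrays in the same order, with a difference of -1.41 ± 0.31. Between si-BRG1 and si-P300, which shared a slide, A_23_P408768 differed by -0.61 ± 0.29, past 1.5-fold. From si-control it differed by -0.32 ± 0.29 after si-BRG1 and by 0.29 ± 0.29 after si-P300. The third probe did not follow the others after si-DOT1L. A_24_P936875 read -0.25, -0.21, 0.13, -0.03, 0.06 and -0.09, a difference of 0.17 ± 0.30 for si-DOT1L, although its sample signal was well above background on all 10 reference arrays. Against the si-control CM array of the same slide the 3 differences were -1.94, -1.34 and 0.21. In RNA of whole cultures, fewer cells with a transcript and less transcript per cell cannot be told apart. Since these values check the label of the knockdown, they are no finding of their own. The siRNA against DOT1L was used in HEK293T only.

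In Ls174T, the DOT1L probes that followed the siRNA in HEK293T varied little. Probe A_23_P408768 read 0.51 in si-control cells, 0.50 after si-MLLT10, 0.45 after si-BRG1 and 0.66 after si-P300, again as log2 of sample over reference, and A_23_P101737 stayed between -0.04 and 0.06. Neither of these separated any knockdown from its control by more than its program error. The third probe, A_24_P936875, read 0.19, 0.29, -0.20 and -0.20 on the same arrays, and its differences of -0.39 ± 0.30 after si-BRG1 and -0.40 ± 0.30 after si-P300 exceeded that error.

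**Figure D1:**
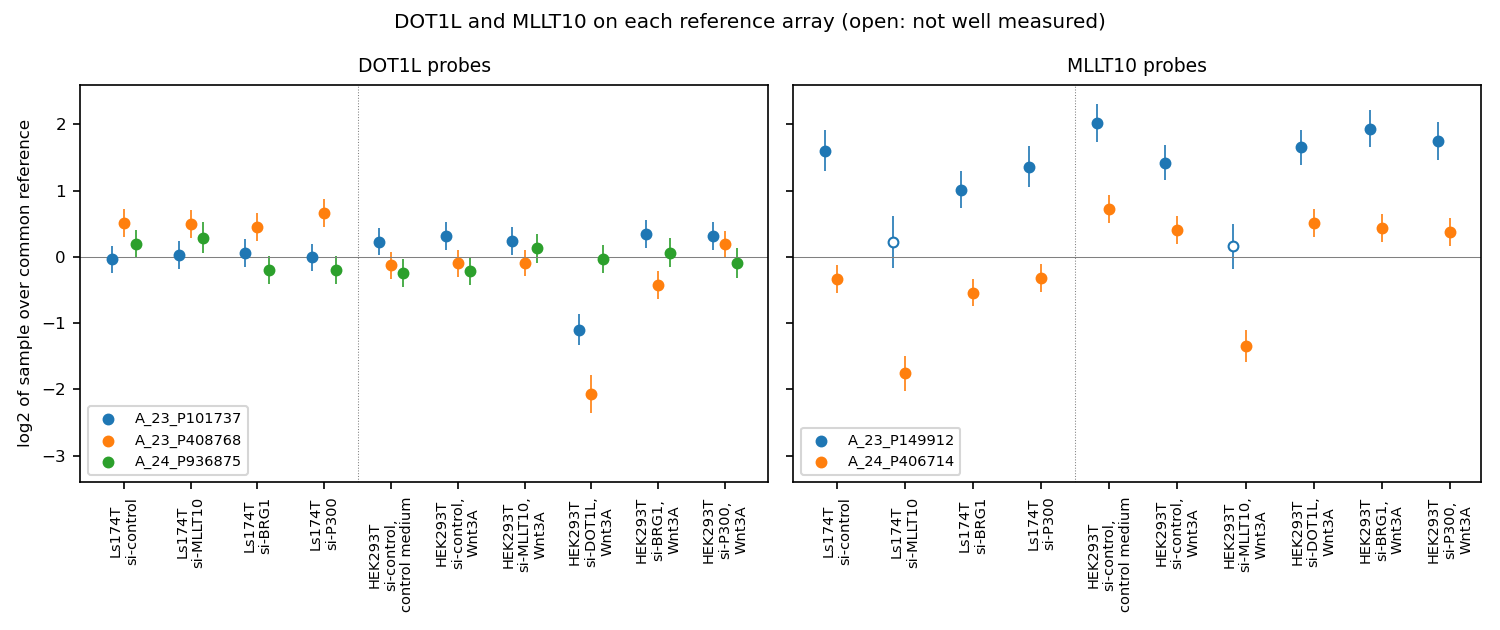
Level of each DOT1L probe (left) and MLLT10 probe (right) on the 10 reference arrays, as log2 of sample over common reference on the vertical axis with the program error of the spot as a bar; filled points are well measured and open ones are not. DOT1L probes A_23_P408768 and A_23_P101737 drop to -2.07 and -1.10 on the si-DOT1L array while A_24_P936875 stays at -0.03, and both MLLT10 probes sit lowest on the si-MLLT10 arrays of each line.

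MLLT10 RNA was lower in both lines after its own siRNA. Probe A_24_P406714 read -0.34 in Ls174T si-control cells, -1.76 after si-MLLT10, -0.54 after si-BRG1 and -0.32 after si-P300 (log2 of sample over reference). In HEK293T it read 0.72 with control medium, 0.40 with Wnt3A, -1.35 after si-MLLT10, 0.51 after si-DOT1L, 0.43 after si-BRG1 and 0.38 after si-P300. In each line the si-MLLT10 array lay below every other array, by a log2 difference from si-control of -1.42 ± 0.33 in Ls174T, where both arrays shared a slide, and of -1.76 ± 0.32 in HEK293T. Against the HEK293T CM array of its own slide the difference was -2.07. The other probe, A_23_P149912, was dimmer. It was not well above background on the Ls174T si-MLLT10 array. There its sample-channel signal, scaled across arrays, was 2.31-fold lower than in si-control cells. That ratio rests on the dim spot's own signal, has no error and is open to dye bias. In HEK293T A_23_P149912 read 1.42 with Wnt3A and 0.16 after si-MLLT10, a difference of -1.26 ± 0.43 that did not meet the limit for well-measured signal.

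Neither member of the DOT1L and MLLT10 pair moved past the fold limit when the other was depleted. The limit was 2-fold in Ls174T and 1.5-fold in HEK293T, limits that the study used in its lists of Wnt-regulated genes and that were taken here for every knockdown of that line. After si-MLLT10, the DOT1L probes A_23_P101737, A_23_P408768 and A_24_P936875 differed from si-control by 0.08 ± 0.30, -0.02 ± 0.30 and 0.10 ± 0.31 in Ls174T. In HEK293T they differed by -0.07 ± 0.29, 0.02 ± 0.29 and 0.34 ± 0.30. After si-DOT1L, the MLLT10 probes A_24_P406714 and A_23_P149912 differed by 0.11 ± 0.29 and 0.23 ± 0.38. Only the value of 0.34 was larger than its program error, on the DOT1L probe that had not followed the DOT1L siRNA. On the slide that held both HEK293T knockdowns, si-DOT1L minus si-MLLT10 was -1.34 and -1.98 for the responding DOT1L probes and 1.87 for MLLT10 A_24_P406714. With 1 array a condition, differences of the size of the program error were not detectable.

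The counts over all 9 genes were small. In Ls174T si-MLLT10, 1 of 18 well-measured member probes was past 2-fold, the MLLT10 probe itself, beside 1.74% of the 27369 features tested across the array. In HEK293T si-MLLT10, 2 of 18 were past 1.5-fold beside 7.43% of all features, 1 of them MLLT10. In HEK293T si-DOT1L, 4 of 23 were past 1.5-fold beside 5.77%, of which 2 were DOT1L itself. Between the knockdowns on the shared slide, 3 of 18 were past 1.5-fold beside 3.65%, and all 3 were probes of the siRNA targets. Apart from the targets, the probes past the limit after si-MLLT10 or si-DOT1L belonged to KMT2A.

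**Figure D2:**
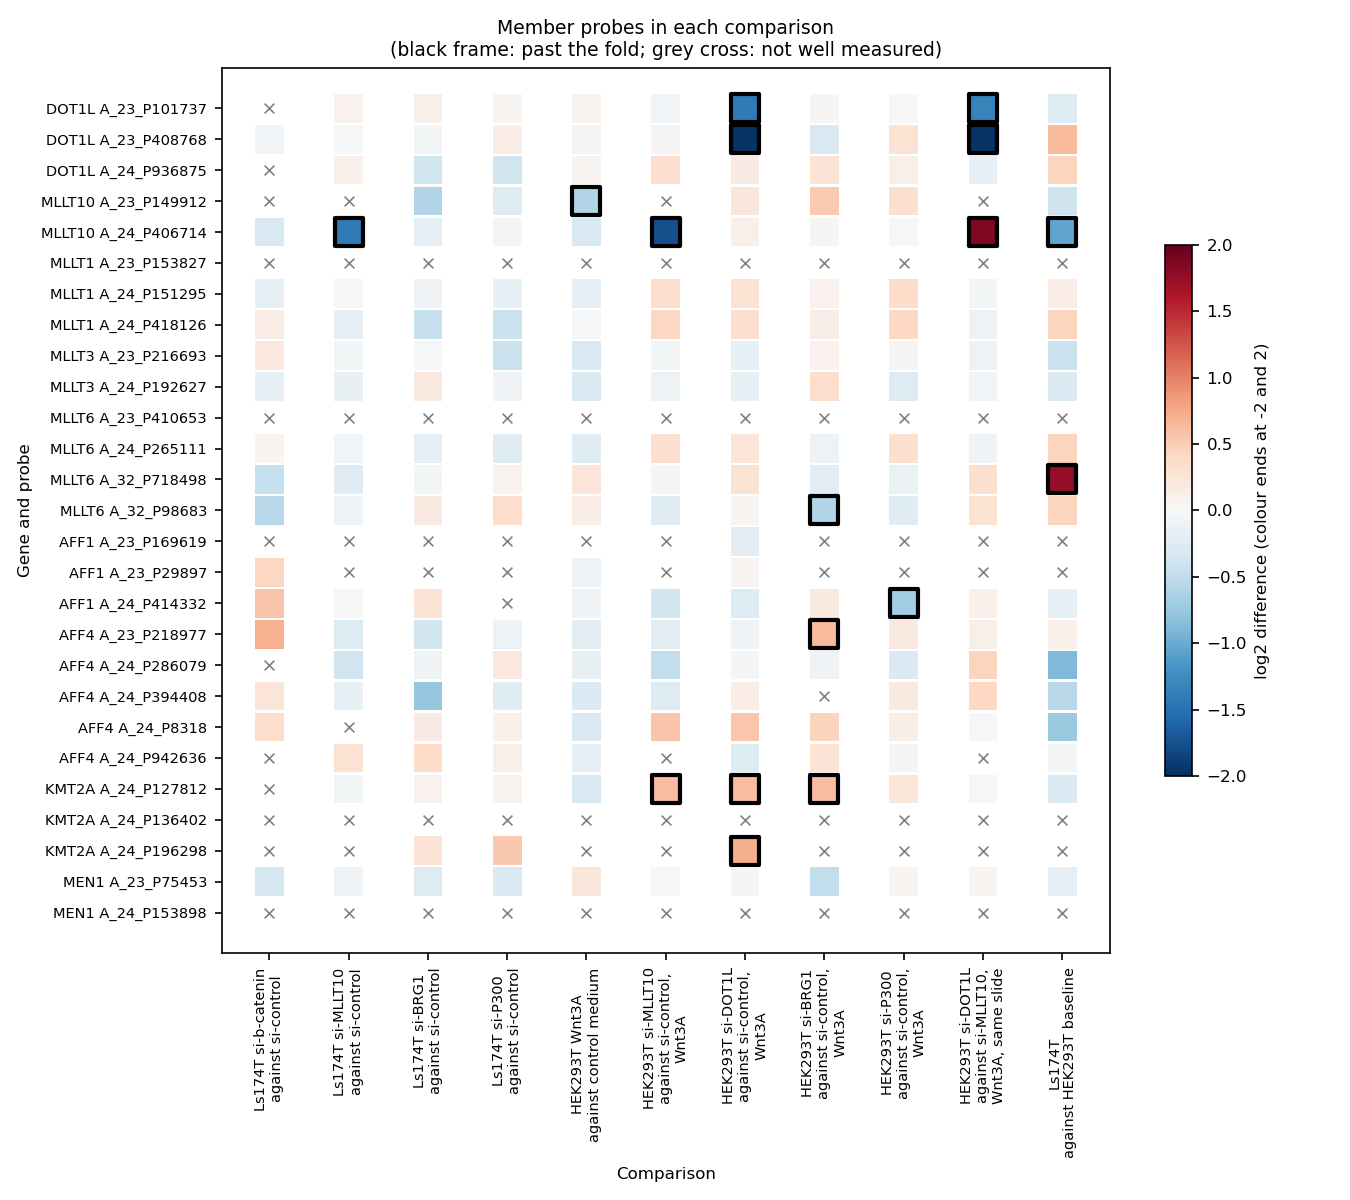
Log2 difference of each of the 27 probes (rows, by gene) in each of the 11 comparisons (columns), from blue for lower to red for higher, with a black frame where a well-measured probe is past the fold limit and a grey cross where it was not well measured. Dark frames lie on DOT1L and MLLT10 in their own knockdowns and in the contrast between them and on MLLT6 A_32_P718498 between the lines, and the 3 KMT2A frames of A_24_P127812 lie in HEK293T.

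MLLT1 and MLLT3, the YEATS-domain proteins ENL and AF9, stayed within the limits in the 11 comparisons wherever they were well measured. Probe A_24_P151295 of MLLT1 ranged from 0.56 to 0.73 over the 4 Ls174T reference arrays and from 0.39 to 0.77 over the 6 HEK293T arrays. Its sister probe A_24_P418126 ranged from 0.89 to 1.35 and from 0.88 to 1.31. In HEK293T both read slightly higher after si-MLLT10, si-DOT1L and si-P300 than on the Wnt3A control, by 0.31 to 0.43 with program errors of 0.30 to 0.34. From the CM array of the same slide, A_24_P151295 differed by 0.17 ± 0.31 after si-MLLT10 and 0.12 ± 0.30 after si-DOT1L, and A_24_P418126 by 0.40 ± 0.34 and 0.29 ± 0.33. The third MLLT1 probe, A_23_P153827, was well measured on none of the 10 reference arrays. MLLT3 probe A_24_P192627 read 2.09 in Ls174T si-control cells and between 1.94 and 2.28 over the Ls174T arrays, and in HEK293T ran from 1.84 to 2.46. MLLT3 probe A_23_P216693 ran from 0.47 to 0.90 and from 0.88 to 1.35. In these comparisons no MLLT3 difference exceeded 0.45 in size. On shared slides the MLLT3 probes read -0.47 ± 0.32 (A_23_P216693) and -0.46 ± 0.41 (A_24_P192627) for si-DOT1L minus si-control CM, and A_24_P192627 read 0.62 ± 0.41 for si-BRG1 minus si-P300 in HEK293T, the last past 1.5-fold.

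MLLT6, the paralogue of MLLT10, did not move past the limit when MLLT10 was depleted. Its well-measured probes A_24_P265111, A_32_P718498 and A_32_P98683 differed from si-control by -0.07, -0.24 and -0.08 in Ls174T and by 0.33, -0.04 and -0.25 in HEK293T, with program errors of 0.29 to 0.34. The probes thus disagreed in sign in HEK293T. After si-DOT1L they differed by 0.25, 0.29 and 0.04. From the CM array of the same slide the differences were 0.10, 0.22 and -0.10 after si-MLLT10 and 0.01, 0.55 and 0.19 after si-DOT1L. The fourth probe, A_23_P410653, was well measured on no array.

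The AFF scaffolds gave probe-dependent values. AFF4 probe A_23_P218977 read 1.09 in Ls174T si-control cells, 0.82 after si-MLLT10, 0.71 after si-BRG1 and 0.97 after si-P300. In HEK293T it read 0.99 with control medium, 0.77 with Wnt3A, 0.56 after si-MLLT10, 0.68 after si-DOT1L, 1.41 after si-BRG1 and 0.97 after si-P300. The si-BRG1 array in HEK293T was the highest of all 10. AFF4 probe A_24_P286079 read -0.40 ± 0.30 from si-control after si-MLLT10 in Ls174T and -0.50 ± 0.29 in HEK293T, short of the limits. A_24_P8318 differed by 0.57 ± 0.34 after si-MLLT10 in HEK293T, and by 0.28 ± 0.33 from the CM array of the same slide. A_24_P942636 gave -0.90 ± 0.42 after si-MLLT10 in HEK293T and -1.11 ± 0.42 from the CM array, neither of which met the limit for well-measured signal, beside 0.30 ± 0.46 in Ls174T. The remaining AFF4 probe, A_24_P394408, differed from si-control by -0.17 ± 0.45 and -0.26 ± 0.41 after si-MLLT10 in the lines and by 0.15 ± 0.39 after si-DOT1L. The AFF4 probes thus disagreed in sign after si-MLLT10 in each line. Of the AFF1 probes, A_24_P414332 differed by 0.01 ± 0.30 after si-MLLT10 in Ls174T, by -0.38 ± 0.31 in HEK293T and by -0.28 ± 0.30 after si-DOT1L. The other AFF1 probes, A_23_P169619 and A_23_P29897, were well measured on 4 and 5 of the 10 reference arrays.

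KMT2A RNA read higher in HEK293T after 3 of the 4 knockdowns. Probe A_24_P127812 gave 0.19 with control medium, -0.14 with Wnt3A, 0.48 after si-MLLT10, 0.48 after si-DOT1L, 0.47 after si-BRG1 and 0.10 after si-P300, as log2 of sample over reference. The Wnt3A control was the lowest of the 6, and the 3 knockdowns lay above both controls. The differences from that control were 0.62 ± 0.30, 0.62 ± 0.30 and 0.61 ± 0.30, and they share the control array. Against the CM array, the differences for si-MLLT10 and si-DOT1L were 0.30 each, inside the 1.5-fold limit. Probe A_24_P196298 was 0.73 ± 0.33 higher after si-DOT1L, and its differences after si-MLLT10 and si-BRG1, 0.60 and 0.76, did not meet the limit for well-measured signal. In Ls174T the KMT2A probe A_24_P127812 read -0.12 in si-control cells, -0.17 after si-MLLT10, -0.03 after si-BRG1 and -0.05 after si-P300, with no difference larger than its error. With another background correction and loess scaling, the HEK293T differences of A_24_P127812 were 0.36 after si-MLLT10, 0.28 after si-DOT1L and 0.37 after si-BRG1, so that none passed the limit. For A_24_P196298 after si-DOT1L that processing gave 0.42, the sample channel alone 0.28 and the CM array, where it was not well measured, 0.57, all inside the limit. Median centring gave 0.80 and the mean of both controls 0.65.

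MEN1 probe A_23_P75453, for the KMT2A partner menin, read 1.24 with control medium, 1.47 with Wnt3A, 1.44 after si-MLLT10, 0.98 after si-BRG1 and 1.51 after si-P300 in HEK293T. The si-BRG1 array was the lowest of the 6, at -0.49 ± 0.33 from the Wnt3A control, and si-DOT1L differed from that control by 0.03 ± 0.35. In Ls174T it ran from 0.76 to 1.05.

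**Figure D3:**
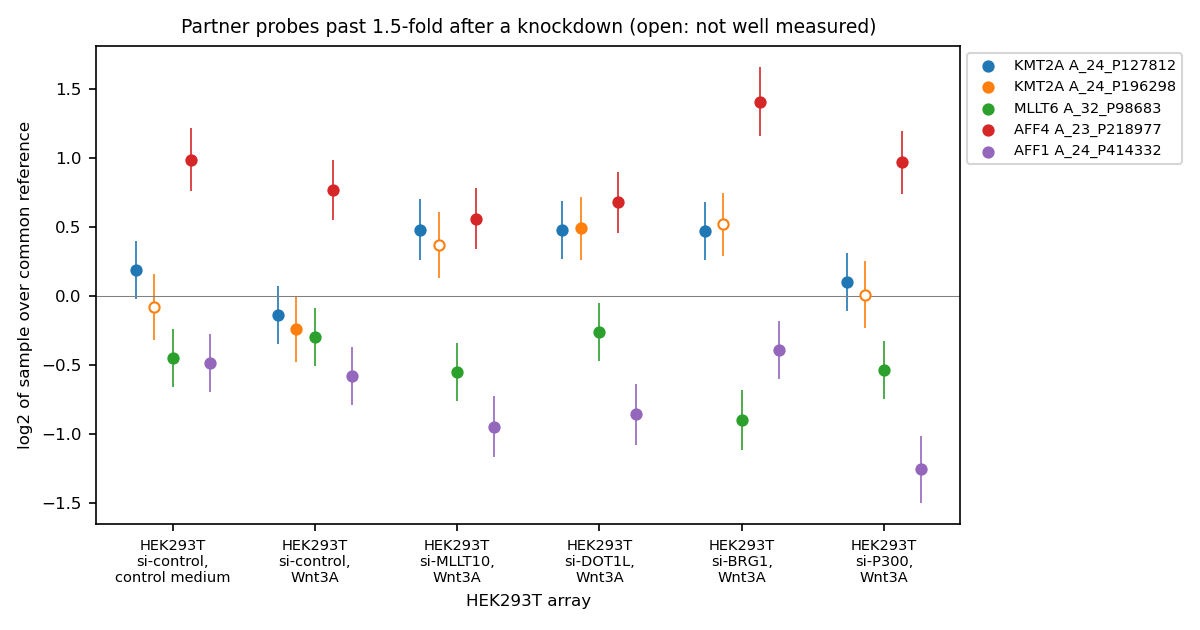
Level of the 5 partner probes that passed 1.5-fold after a HEK293T knockdown, as log2 of sample over common reference with the program error as a bar, on the 6 HEK293T arrays; open points were not well measured. KMT2A A_24_P127812 lies at 0.47 to 0.48 on 3 knockdown arrays and at -0.14 and 0.19 on the controls, and AFF4 A_23_P218977 peaks at 1.41 after si-BRG1.

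BRG1 and P300 siRNA gave a point of comparison outside the DOT1L complex. In HEK293T si-BRG1, 3 of 19 well-measured member probes were past 1.5-fold beside 22.2% of all features. These were KMT2A A_24_P127812, AFF4 A_23_P218977 at 0.64 ± 0.33 and MLLT6 A_32_P98683 at -0.60 ± 0.30. The MLLT6 probe read -0.45 with control medium, -0.30 with Wnt3A, -0.55 after si-MLLT10, -0.26 after si-DOT1L, -0.90 after si-BRG1 and -0.54 after si-P300, so that si-BRG1 was the lowest of the 6. Against the mean of both controls none of the 3 passed the limit, at 0.44, 0.53 and -0.53, and in the sample channel alone the AFF4 difference turned to -0.14. The well-measured sister probes stayed inside the limit after si-BRG1. For MLLT6 they differed from si-control by -0.12 ± 0.31 (A_24_P265111) and -0.22 ± 0.30 (A_32_P718498). For AFF4 they differed by -0.09 ± 0.29 (A_24_P286079), 0.46 ± 0.33 (A_24_P8318) and 0.27 ± 0.43 (A_24_P942636). In HEK293T si-P300, 1 of 20 passed beside 12.3%, AFF1 A_24_P414332 at -0.69 ± 0.32. That probe read -0.49, -0.58, -0.95, -0.86, -0.39 and -1.26 over the HEK293T arrays, lowest after si-P300, and si-BRG1 minus si-P300 on their shared slide was 0.88 ± 0.31. In Ls174T no well-measured member probe was past 2-fold after si-BRG1 (of 21, beside 5.26% of all features) or si-P300 (of 20, beside 5.9%). The AFF1 probe stood 1.90 above si-control on the Ls174T si-P300 array, but its spot carries the program's outlier flag there and was left out.

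β-catenin depletion in Ls174T moved no member probe past 2-fold, of 15 well measured, where 5.6% of the 17706 features tested did. The largest values were 0.71 ± 0.23 for AFF4 A_23_P218977, 0.57 ± 0.15 for AFF1 A_24_P414332 and -0.56 ± 0.15 for MLLT6 A_32_P98683. The AFF4 probe read 0.67 on the forward array and 0.75 on the dye-exchanged one, the AFF1 probe 0.37 and 0.76, and the MLLT6 probe -0.56 on both. A further MLLT6 probe, A_32_P718498, read -0.42 and -0.52, whereas A_24_P265111 read -0.11 and 0.18. MLLT10 A_24_P406714 was lower on both arrays, at -0.38 and -0.26, and so was MEN1 A_23_P75453 at -0.40 and -0.26. DOT1L A_23_P408768 read 0.02 and -0.17. The arrays of the pair gave the same sign for 10 of the 15 probes and opposite signs for 5, beside the same sign for 80.6% of all features. For 6 probes the sign was shared and both values exceeded their program errors (40% of the 15, beside 43.7% of all features). Since both arrays carry the same RNAs, they count as 1 sample. AFF4 A_24_P8318 read -0.44 on one and 1.16 on the other, and AFF1 A_23_P29897 read -0.08 and 0.94.

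The bases upstream of MLLT6 and AFF4 are shown because a probe of MLLT6 gave the lowest β-catenin value and one of AFF4 the highest. For AFF4 this rests on A_23_P218977 alone, which read 0.27 with normexp and loess, below AFF1 A_24_P414332 at 0.43, and its well-measured sister probes A_24_P394408 and A_24_P8318 gave 0.26 and 0.36. RefSeq windows from 250 bases before to 50 after the start were at hand for 8 of the 9 genes, on build GRCh38.p14, some with more than 1 start. DOT1L had none and was not searched. They were searched on both strands for the TCF/LEF letters CTTTGNN with A or T in both N positions. Of 35116 windows, 13.8% held a match. Among the 8 genes searched only the MLLT6 window did, with CTTTGTT starting 169 bases before the start of the gene (-169). That 1 match in 8 genes is near the share over all windows. The match is in capitals in the upstream bases below, written 5′ to 3′ along the gene, chr17:38705023-38705272 on the plus strand for MLLT6 and chr5:132963635-132963884 on the minus strand for AFF4. It is a description of these letters, not of a bound site.
MLLT6: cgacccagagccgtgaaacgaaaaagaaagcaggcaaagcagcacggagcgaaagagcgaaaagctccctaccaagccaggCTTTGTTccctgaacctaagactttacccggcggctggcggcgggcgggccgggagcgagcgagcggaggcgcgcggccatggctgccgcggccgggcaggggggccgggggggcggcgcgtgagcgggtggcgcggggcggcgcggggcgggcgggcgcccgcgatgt
AFF4: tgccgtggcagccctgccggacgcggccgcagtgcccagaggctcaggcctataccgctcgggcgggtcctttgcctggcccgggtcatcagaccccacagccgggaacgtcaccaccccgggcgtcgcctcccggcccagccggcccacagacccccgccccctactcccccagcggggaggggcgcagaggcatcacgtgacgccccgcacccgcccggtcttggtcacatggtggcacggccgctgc
Both windows are rich in G and C, at 73.2% for MLLT6 and 75.2% for AFF4, beside a median of 58% over all windows.

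**Figure D4:**
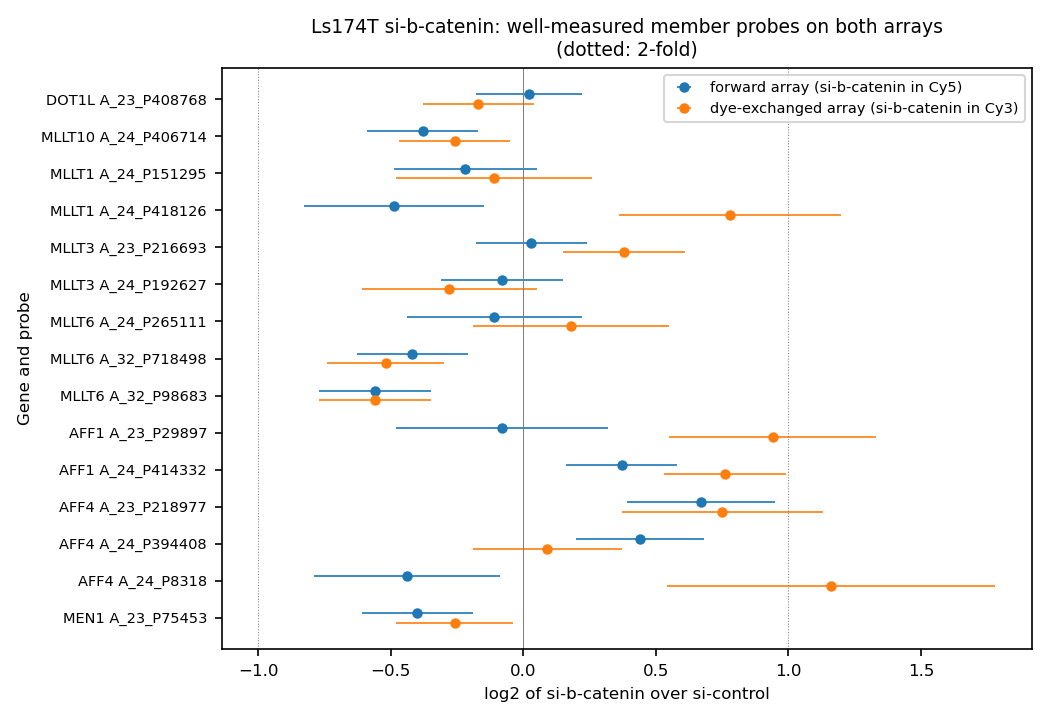
Log2 of si-b-catenin over si-control (horizontal axis) for the 15 member probes well measured on both arrays of the dye-exchanged Ls174T pair, with the program error as a bar and dotted lines at 2-fold. MLLT6 A_32_P98683 and A_32_P718498 lie below 0 on both arrays, AFF4 A_23_P218977 lies above 0 on both, and AFF4 A_24_P8318 and AFF1 A_23_P29897 take opposite signs.

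Wnt3A left most of the set near its level in control medium. Of 21 well-measured probes, 1 was past 1.5-fold beside 6.72% of all features. This was MLLT10 A_23_P149912, at 2.02 with control medium and 1.42 with Wnt3A, a difference of -0.60 ± 0.39. The brighter MLLT10 probe differed by -0.32 ± 0.30, and with the other background correction A_23_P149912 differed by -0.16. The DOT1L probes differed by 0.03 to 0.07. The median over the members was -0.19, beside -0.01 over all features tested.

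Some probes of MLLT10, MLLT6, DOT1L and AFF4 differed in level between Ls174T and HEK293T, a share below that of all features. Leaving out its own knockdowns, MLLT10 A_24_P406714 ran from -0.54 to -0.32 on 3 Ls174T arrays and from 0.38 to 0.72 on 5 HEK293T arrays, with no overlap, and the other MLLT10 probe overlapped, with medians of 1.36 and 1.75. MLLT6 A_32_P718498 ran from 1.16 to 1.49 on 4 Ls174T arrays and from -0.36 to 0.19 on 6 HEK293T arrays. The other well-measured MLLT6 probes were also higher in every Ls174T array, by means of 0.39 and 0.61. For DOT1L the probes disagreed. A_23_P408768 was higher in Ls174T by 0.64 on average and A_23_P101737 was lower by 0.27, both without overlap, while A_24_P936875 overlapped. AFF4 A_24_P286079 ran from -0.73 to -0.12 in Ls174T and from -0.08 to 0.56 in HEK293T, also without overlap. The other AFF4 probe well measured on every array, A_23_P218977, overlapped. Of 16 member probes well measured on every array, 4 lay higher in Ls174T, 3 lay higher in HEK293T and 9 overlapped, so that 43.8% did not overlap, beside 57.6% of all features. The baselines alone, si-control Ls174T against si-control HEK293T in control medium, put 2 of 20 past 2-fold beside 33.4%, MLLT10 A_24_P406714 at -1.06 ± 0.30 and MLLT6 A_32_P718498 at 1.76 ± 0.32. The arrays of a line differ in siRNA and, in HEK293T, in medium, and no sample was repeated.

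**Figure D5:**
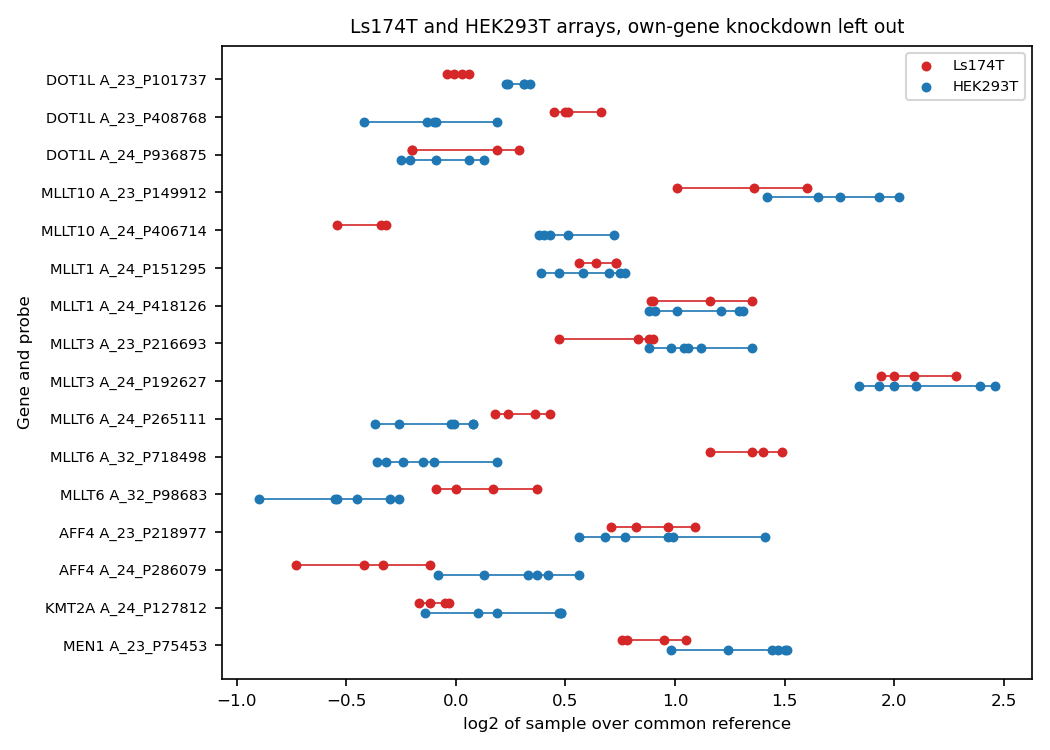
Levels of the 16 member probes well measured on every array used, as log2 of sample over common reference, on the Ls174T arrays (red) and HEK293T arrays (blue), leaving out the knockdown of the gene itself; each point is 1 array and lines join the lowest and highest. MLLT6 A_32_P718498 is separated to the right in Ls174T and MLLT10 A_24_P406714 to the right in HEK293T, while MLLT1 and MLLT3 overlap.

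The wider elongation machinery was followed with 55 further genes in 4 lists. They hold the rest of the super elongation complex and P-TEFb (15 genes measured), PAF1, DSIF, NELF and other elongation factors (16), the MLL and COMPASS methyltransferases (14), and enzymes of H2B ubiquitination with YEATS relatives (10). The list of the super elongation complex and P-TEFb has 38 features from 29 probes, and repeat spots of a probe are counted as separate features. In Ls174T no well-measured feature of any list was past 2-fold after si-MLLT10, si-BRG1 or si-P300 (of 89 each) or si-b-catenin (of 72). Of all features, 1.74%, 5.26%, 5.9% and 5.6% were past it in these comparisons, in the same order. In HEK293T, 2 features were higher and 3 lower after si-MLLT10, of 89, or 5.62% beside 7.43% of all features, and 2 were higher and 0 lower after si-DOT1L, of 92, or 2.17% beside 5.77%. SUPT16H, the large subunit of the histone chaperone FACT, was 0.87 ± 0.33 and 0.69 ± 0.32 higher in these knockdowns on probe A_24_P153800. KMT2C, a methyltransferase related to KMT2A, was 0.78 ± 0.30 higher after si-MLLT10 on probe A_24_P840688. PSIP1, which tethers the menin complex to chromatin, read -0.74 ± 0.33, and HEXIM1, the inhibitor that holds P-TEFb inactive, read -0.67 ± 0.33. AFF3 was 0.72 ± 0.34 higher after si-DOT1L. All differences of list genes from si-control in HEK293T knockdowns share the 1 si-control Wnt3A array, so their likeness between knockdowns is not independent. For these genes no values against the CM array are given. Between si-DOT1L and si-MLLT10 on their shared slide, no list feature of 89 was past 1.5-fold, beside 3.65% of all features.

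After si-BRG1 in HEK293T, 5 list features were higher and 8 lower, of 91, a share of 14.3% beside the 22.2% of all features. ELL2, an elongation factor of the super elongation complex, was 1.15 ± 0.35 higher and CCNT2, a cyclin of P-TEFb, was 0.79 ± 0.35 higher, while the NELF subunit NELFCD read -1.10 ± 0.31 and KMT2C read -0.88 ± 0.30 on probe A_24_P204269. After si-P300, 1 of 89 was past the limit beside 12.3% of all features, EAF1, a partner of ELL, at -0.61 ± 0.29. Wnt3A put 1 feature higher and 2 lower, of 93, or 3.23% beside 6.72% of all features. Between the lines 14 features were higher and 14 lower in Ls174T, of 89, or 31.5% beside 33.4% of all features. CDK9, the kinase of P-TEFb, was higher in Ls174T by 1.43 and 1.74 on its 2 probes. The list of the super elongation complex and P-TEFb had 11 of 31 features higher and 4 lower, with a median of 0.79. Of all features, 14.3% were higher and 19.1% lower, with a median of -0.03. Since that list has 29 probes, the 31 features include repeat spots of a probe, so its counts and median do not rest on independent features. BCOR, a corepressor that binds MLLT3, read -2.46 and KDM6A, a demethylase of the COMPASS complexes, read -2.18. The lists were described by their counts and had no test.

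The genes whose pattern over the 10 reference arrays was most like that of DOT1L or MLLT10, once the mean of each line was taken off, are named as a description. With DOT1L A_23_P408768 these were LRRC8A (r = 0.943), ELOVL5 (0.918), HOXB13 (0.908), AGPAT3 (0.904) and NIN (0.872), each of Pearson's r over 10 arrays, and the second DOT1L probe gave 0.957 while the third gave -0.122. Their differences from si-control after si-DOT1L, between -0.30 and -0.71, follow from this choice, since the array of the gene's own knockdown is among the 10. With MLLT10 A_24_P406714 they were POGLUT2 (0.966), NKAPD1 (0.965), CRK (0.940), EEIG2 (0.938) and HNRNPD (0.920), and the other MLLT10 probe gave 0.964. NKAPD1 read -0.57 and -0.78 after si-MLLT10 in Ls174T and HEK293T, and POGLUT2 read -0.39 and -0.57, which the choice likewise favours. Among the partner probes, AFF4 A_24_P286079 was the most like MLLT10, at 0.875, with both si-MLLT10 arrays among the 10. The other ranked AFF4 probes disagreed, at 0.616 (A_24_P942636), 0.497 (A_23_P218977) and -0.512 (A_24_P8318). The arrays share the reference RNA, knockdowns of a line share the control culture, and 20056 features were ranked.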

How the data were processed

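RNA of Ls174T and HEK293T cells was hybridised to Agilent whole human genome arrays, 12 in all. The authors extracted spot signals with Agilent Feature Extraction (version 10.5.1.1 per the file headers; the submitters' processing notes give 8.5.1.1). The deposited scanner files hold each spot's intensity after background subtraction and dye normalization and its log10 ratio of Cy5 over Cy3 with an error, and the deposited value table holds the same log10 ratios, with the sign turned on the dye-exchanged array. No column of per-sample values was left unmapped. Ratios were turned to sample over reference (reference in Cy5), changed to log2 and subtracted between arrays, and errors were combined as the root of summed squares. The arrays of the si-b-catenin pair were averaged.

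Control spots and spots with the program's non-uniformity or population outlier flag were left out, and features had to exceed 2 times local background in either channel on every array compared, after the study's methods. A difference was called past 2-fold in Ls174T and past 1.5-fold in HEK293T, limits the study applied to its Wnt-regulated genes, and past 2-fold between lines. With 1 sample a condition no test was run and no p-value is given. Probes were named through RefSeq accessions (27612 of 28546 features matched, 96.7%), and probes of a gene were kept apart. All probes of the 9 genes were analysed. From the lists, at most 2 features in each direction and comparison were named, those furthest from 0 among features past the limit, past 2 times their program error and well above background on at least 1 array. For likeness, probes had to be well above background on 8 of 10 reference arrays, and 5 genes were named. The members, lists and rules were chosen with earlier results of these data known. Alternatives were normexp background correction (offset 50) with loess in limma 3.58.1 (R 4.3.3), the sample channel scaled to its 75th percentile, median centring, the value table, other filters, other thresholds and other controls. The fold given for the dimmer MLLT10 probe in Ls174T used Aquantile-scaled sample channels. Tables were made in Python 3.11.15. The calls were checked on simulated data whose changes lay well past the limit, so the check does not bear on values near it. The number of arrays limits the precision. The RNA of the cells does not show the protein, and the position of a probe within its transcript was not used here.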

Additional observations from a re-analysis of the deposited data

Results flagged for a closer look

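In 3 cases a member probe past 1.5-fold in HEK293T had a value of the opposite sign under the same siRNA in Ls174T. The KMT2A and MLLT6 values in Ls174T were within their program errors. Each value came from 1 array a condition, and the difference between the lines was not tested. The cases were chosen for passing the limit in HEK293T, which by itself favours a smaller value in Ls174T. All 3 HEK293T values share the si-control Wnt3A array. KMT2A A_24_P127812 after si-MLLT10 read 0.62 ± 0.30 in HEK293T and -0.05 ± 0.31 in Ls174T, 0.67 apart. From the CM array of the same slide its HEK293T value was 0.30 ± 0.30. After si-BRG1, MLLT6 A_32_P98683 read -0.60 ± 0.30 in HEK293T and 0.18 ± 0.29 in Ls174T, a HEK293T minus Ls174T value of -0.78. AFF4 A_23_P218977 read 0.64 ± 0.33 in HEK293T and -0.38 ± 0.32 in Ls174T after si-BRG1, 1.02 apart, and its HEK293T value changed sign in the sample channel alone. The well-measured sister probes of MLLT6 and AFF4 stayed inside the limit after si-BRG1 in HEK293T.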

How the results depend on the processing

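The 17 member values past a fold limit were recomputed under 84 alternatives in all, of which 72 gave a value within the program error of the first, 11 moved it further and 1 turned its sign, AFF4 A_23_P218977 after si-BRG1 in HEK293T at -0.14 in the sample channel alone. The 72 do not measure how stable the calls are. The value table holds the same ratios as the scanner files, so its agreement was fixed in advance. A value within the program error could also fall inside the limit. KMT2A A_24_P127812 after si-MLLT10 in HEK293T did so, at 0.36 in the sample channel alone and 0.46 with the mean of both controls. The counts of member probes past the limit moved as follows. At the other threshold they were 1 for si-b-catenin, 2 for Ls174T si-BRG1, 0 for Wnt3A, 1 for HEK293T si-MLLT10, 2 for si-DOT1L, 0 for si-BRG1 and 0 for si-P300. With no filter on signal they were 2 for Ls174T si-MLLT10, 1 for Ls174T si-P300, 2 for Wnt3A, 8 for HEK293T si-MLLT10, 7 for si-DOT1L, 8 for si-DOT1L against si-MLLT10, 6 for si-BRG1, 5 for si-P300 and 5 between the lines. In the sample channel alone they were 1 for Ls174T si-BRG1, 2 for Ls174T si-P300, 3 for Wnt3A, 5 for HEK293T si-BRG1, 4 for si-P300 and 4 between the lines. With normexp and loess they were 0 for Wnt3A, 1 for HEK293T si-MLLT10, 2 for si-DOT1L and 1 for si-BRG1. With both si-control arrays as the control they were 1 for HEK293T si-MLLT10, 2 for si-DOT1L and 0 for si-BRG1, and with the same-slide CM array 2 for si-DOT1L. The dye-exchanged array alone gave 1 for si-b-catenin, keeping outlier spots gave 1 for Ls174T si-P300, and median centring gave 1 between the lines. The cause was not tested. No share of all features under the same setting is given beside these counts, so they cannot be read as a response of the members. The DOT1L and MLLT10 values in their own knockdowns kept their direction, at -1.08 to -2.09 and -1.56 to -2.05 for the responding DOT1L probes and -1.29 to -2.07 for MLLT10 A_24_P406714. No paired analysis was possible because each condition has 1 sample.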
